A study of Mus musculus with 26 samples.

Results

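A set of 9 glial marker genes, of the 56941 genes in the tables, was followed across the 26 libraries of a study of mouse motor neuron spheroids. They were listed by symbol, with earlier results of these data known. They comprised the radial glia and astrocyte-lineage genes Fabp7, Slc1a3 and Sox9 and the astrocyte genes Aldh1l1, Gfap, Aqp4 and S100b. The oligodendrocyte-lineage genes were Pdgfra and Sox10. All 9 were detected and all 9 entered the fits to all libraries and to the deeper ones. The spheroids came from the HBG3 mouse embryonic stem cell line, which carries a green fluorescent reporter under the motor neuron gene HB9 and whose genotype label reads "heterozygous blastocysts". The stem cells were grown on a feeder layer, differentiated with retinoic acid and the hedgehog agonist puromorphamine (spelled as labelled), given ciliary and glial derived neurotrophic factors from day 5, and seeded on fibrin as spheroids of about day 8. These steps were common to all groups.

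The 5 groups were actuated (n = 4, spheroids on a matrix with a magnetic silicone array moved for 30 min a day at 4 Hz), static (n = 4, the same array never moved), high and low (n = 6 each, labelled as high and low intensity biochemical treatment) and control (n = 6, labelled biochemical control). The design text describes medium from muscle that was light-stimulated at 1 Hz for 30 min and medium from unstimulated muscle, but under sample names that do not pair with the high and low labels, so these groups are called by their labels. The static and control groups differed both in the array and in the arm of the study, which cannot be told apart. All libraries came from 1 cell line, no label gives a batch, and none says whether replicates were separate differentiations, so p-values measure only the spread between these samples.

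Radial glia are the progenitors of the developing neural tube and give rise first to neurons and later to astrocytes and oligodendrocytes. Motor neurons and oligodendrocyte precursors arise in turn from the same ventral progenitor domain, and differentiation with retinoic acid and a hedgehog agonist imitates its patterning signals. Ciliary neurotrophic factor acts through JAK and STAT3, a route by which neural progenitors are known to switch on Gfap. Transcripts in a whole spheroid are summed over its cells, so fewer cells of a type and less RNA per cell cannot be told apart.

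Gfap and Slc1a3 are shown here by their promoters because both windows hold a STAT-type motif. RefSeq promoter windows (GRCm38.p6, 250 bases before to 50 bases after the annotated start) matched 6 of the 9 genes: Fabp7, Slc1a3, Aldh1l1, Gfap, S100b and Pdgfra. The motif searched was TTCNNNGAA, which reads the same on both strands and is in capitals in the stretches printed, from 150 bases before the start through the first 10 bases of the transcript.
Gfap, chr11:102897191-102897350, minus strand: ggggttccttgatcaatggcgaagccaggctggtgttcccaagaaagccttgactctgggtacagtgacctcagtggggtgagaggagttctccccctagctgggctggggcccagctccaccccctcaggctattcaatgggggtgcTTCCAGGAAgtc
Slc1a3, chr15:8710798-8710957, minus strand: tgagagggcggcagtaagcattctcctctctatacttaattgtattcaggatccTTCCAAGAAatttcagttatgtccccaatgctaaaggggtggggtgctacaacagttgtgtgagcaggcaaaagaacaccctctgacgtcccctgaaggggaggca
The match began 2 bases before the annotated start of Gfap and 96 bases before that of Slc1a3. The other 4 windows held no match, and 8.30% of all 32851 windows held at least 1. The palindromic nuclear factor I motif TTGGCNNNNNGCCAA and the SOX-type motif ACAAAG, on both strands, were in none of the 6 windows and in 0.0365% and 18.7% of all windows. A match of letters describes the window and is no evidence of binding.

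Depth differed by group. Total counts ran from 7269276 to 9839951 in the actuated libraries, from 613344 to 13162635 in the static ones, from 1457250 to 3771637 in the controls, from 243510 to 3971348 in the high group and from 1536 to 3602716 in the low group. The 5 libraries with at most 1000000 counts in protein-coding genes stood apart: control replicate 4 (75.7% of counts in ribosomal RNA genes), low replicate 6 (1536 counts in all), high replicates 4 and 5, and static replicate 3. Levels below are for the 21 deeper libraries (4 actuated, 3 static, 4 high, 5 low, 5 control), and tests are given for all 26 and for these 21. Among the deeper libraries mitochondrial genes took 6.77% to 11.4% of counts on the arrays and 11.7% to 17.5% in controls. Of 8 microglial genes Tyrobp and C1qa were at 0 in all 21 deeper libraries, while Csf1r was at 0 in 2 and reached 32.6 TPM, and the summed level of the list ran from 1.02 to 30.0 CPM. Of 6 pluripotency genes Nanog and Pou5f1 were at 0 in 13 and 16, while Esrrb was counted in all 21, with a median of 4.28 TPM.

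Gfap and Fabp7 were among the most abundant transcripts of the spheroids, and the other 7 genes had lower levels. On the length-corrected TPM scale of the deposited table, over the 21 deeper libraries, Gfap (glial fibrillary acidic protein, an intermediate filament) had a median level of 882 TPM and ranked 76 among the 17992 genes with a median above 0. Fabp7 (brain lipid-binding protein of radial glia) had a median of 760 TPM and ranked 88. These levels lay between those of the neurofilament gene Nefl, 1691 TPM, and the neuronal microtubule gene Map2, 432 TPM. The motor neuron genes Mnx1 (which encodes HB9), Isl1 and Chat had medians of 3.92, 4.03 and 3.87 TPM, the lowest of the neuronal list. Slc18a3, another cholinergic gene of that list, had a median of 27.1 TPM and ran from 11.7 to 50.1.

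The next members in order were Slc1a3 (the glutamate transporter GLAST, 157 TPM), Aldh1l1 (a folate-metabolism enzyme used to mark astrocytes, 63.4 TPM) and Sox9 (a transcription factor of the gliogenic switch, 46.6 TPM). Below them came Pdgfra (the growth factor receptor of oligodendrocyte precursors, 24.5 TPM), Aqp4 (the water channel of astrocyte endfeet, 16.0 TPM), Sox10 (a transcription factor of the oligodendrocyte lineage and neural crest, 7.84 TPM) and S100b (a calcium-binding protein of mature astrocytes, 1.74 TPM). The ranges of neighbours in this order overlapped except those of Fabp7 and Slc1a3, which ran from 71.5 to 239 TPM. Gfap ran from 260 to 1356 TPM and Fabp7 from 338 to 1239, and Aqp4 ran from 5.28 to 29.3 and Pdgfra from 6.73 to 45.0. Sox10 varied most, 22.3-fold from its lowest to its highest library, and Sox9 least, 3.30-fold, leaving out S100b, which was at 0 in 3 of the 21.

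**Figure D1:**
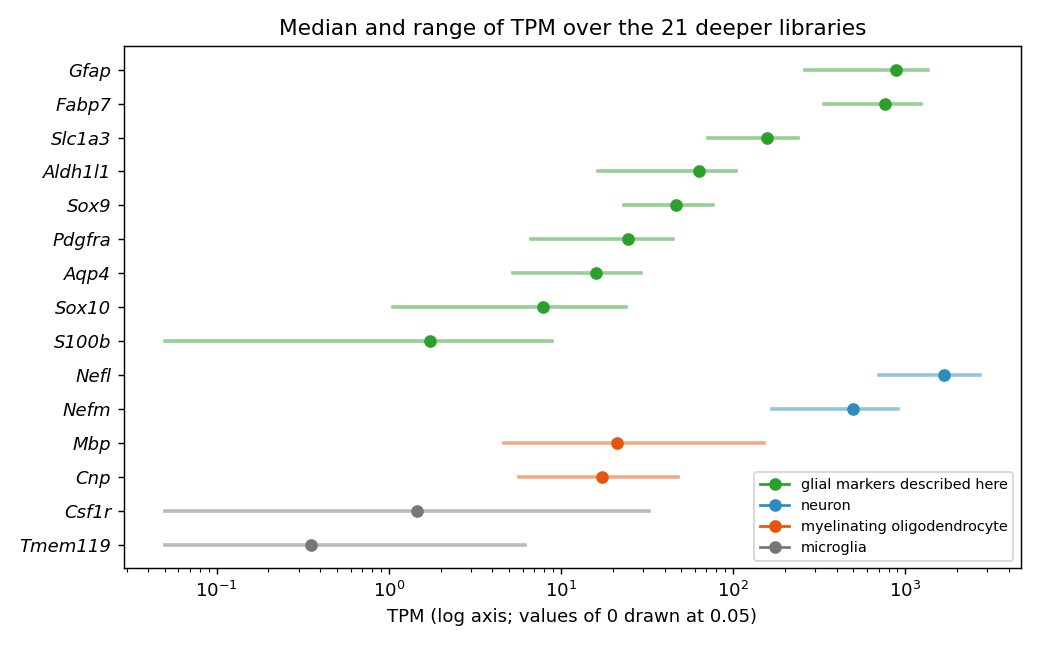
Median (point) and range (line) of TPM on a log axis over the 21 deeper libraries, for the 9 glial marker genes and the 2 most abundant genes of 3 other marker lists. Gfap and Fabp7 sit in the range of the neurofilament genes, and the medians of the microglial genes lie below all others drawn.

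Other astrocyte genes were abundant too, on the same TPM scale. Sparcl1 (a matrix protein secreted by astrocytes) had a median of 1500 TPM, Apoe (the brain's main lipid carrier) 1096 and Aldoc (a glycolytic enzyme of astrocytes) 239, while the connexin gene Gjb6 was at 0 in 16 of 21 libraries. Of the progenitor genes, Vim (vimentin) had 699 TPM, Nfib 60.8 and Ptprz1 51.0. Of the reactive astrocyte genes Serpina3n had 127 and Hspb1 89.5, whereas Lcn2 was at 0 in 10 libraries. Of the oligodendrocyte precursor genes Vcan had 35.8 and Bcas1 24.7, while Olig1 had 9.05, Olig2 6.24, Gpr17 5.73, Nkx2-2 2.15 and Cspg4 1.68. Of the myelin genes Mbp had 21.2 and Cnp 17.3. Mog, a late myelin protein gene, was at 0 in 13 libraries. Genes shared with neural crest and Schwann cells, which also use Sox10, were present (Ednrb 65.5, Ngfr 19.6 and Pmp22 17.1 TPM). Mesenchymal genes were present as well, with Fn1 at 141, Acta2 at 77.8 and Col1a1 at 36.7.

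Levels of 1 gene across libraries are given as CPM, the counts scaled to a library total of 1000000. On this scale the median of all fitted genes was itself 0.19 higher (log2) in static than in control libraries, 0.15 higher in high than in control and 0.13 higher in low than in control, so the fits below use TMM scaling, which centres that median near 0. On TPM the same shifts were 0.50, 0.58 and 0.69.

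Among the radial glia genes, Fabp7 was in CPM highest on the arrays and lowest in the treated biochemical groups. In TPM its mean was lowest in controls, at 577 against 712 in high and 751 in low libraries. Its CPM was 540, 636 and 725 in the static libraries and 453, 385, 646 and 595 in the actuated ones, against 345, 359, 478, 426 and 454 in controls. In the low group it was 352, 374, 431, 354 and 306, and in the high group 361, 402, 287 and 442. Every static library lay above every control on this scale but not with TMM scaling, whereas the actuated, low and high groups all overlapped the controls. The order of the group means was static 633 ± 92.7 (SD, n = 3), actuated 520 ± 121 (n = 4), control 412 ± 58.5 (n = 5), high 373 ± 65.8 (n = 4) and low 363 ± 45.1 (n = 5), and neighbours in this order differed by less than the larger of their SDs.

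Slc1a3, which clears glutamate from the extracellular space, had 536 to 615 CPM in static, 559 to 672 in actuated and 357 to 468 in control libraries. Its low group ran from 331 to 617 CPM and its high group from 346 to 537, both overlapping the controls. Sox9 was the flattest member, with group means of 193 ± 27.2 CPM (SD, n = 4) in actuated, 190 ± 6.68 (n = 3) in static, 182 ± 37.2 (n = 5) in low, 150 ± 11.8 (n = 5) in control and 149 ± 11.8 (n = 4) in high libraries. Within the low group a single library, replicate 1, reached 244 CPM for Sox9 while the other 4 lay between 148 and 186.

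Among the astrocyte genes, Gfap followed the order control, high, low, static, actuated. Its CPM was 1121, 1409, 1630, 1219 and 1514 in controls, 1648, 1540, 1535 and 1764 in high and 2592, 1728, 2125, 1571 and 1267 in low libraries. On the arrays it was 2416, 2085 and 2757 in static and 2198, 1973, 2885 and 2935 in actuated libraries. On this scale no array library fell as low as the highest control, though with TMM scaling actuated replicate 2 did. The low group spanned both ranges, and neighbouring groups in the order overlapped. Group means were 1379 ± 209 (SD, n = 5), 1622 ± 108 (n = 4), 1857 ± 515 (n = 5), 2419 ± 336 (n = 3) and 2498 ± 485 (n = 4), in that order.

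Aqp4, which lets water cross the astrocyte membrane, separated the controls from the static array more sharply. It was 28.6, 26.2, 30.7, 26 and 25.1 CPM in controls and 57.9, 57.0 and 63.2 in static libraries. The actuated libraries fell into a low pair, 40.0 and 29.8, and a high pair, 74.4 and 75.1, and the low group ran from 24.3 to 64.1 and the high group from 28.4 to 46.6. Aldh1l1 ran from 86.2 to 118 CPM in controls, from 87.3 to 133 in low, from 84.1 to 138 in high, from 146 to 191 in static and from 110 to 182 in actuated libraries.

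S100b was close to the limit of counting. It had 13, 0, 0, 1 and 12 counts in the 5 deeper controls, 7, 5, 7 and 10 in the high group and 10, 4, 4, 0 and 17 in the low group. On the arrays it had 32, 77 and 48 counts in static and 5, 16, 105 and 62 in actuated libraries, which were also sequenced more deeply. In CPM the static libraries (3.82, 5.85 and 6.21) lay above the highest control, 3.45, which did not hold with TMM scaling, and the actuated ones spanned 0.688 to 11.5.

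The oligodendrocyte-lineage gene Sox10 was 4.77, 9.52, 6.82, 8.36 and 12.3 CPM in controls, 16.1, 17.0, 13.7 and 34.5 in the high group and 27.3, 35.7 and 40.9 in the static group. In the low group it was 36.9, 12.1, 17.1, 7.09 and 11.3, and in the actuated group 18.8, 11.3, 57.4 and 38.5. Every high and every static library lay above every control, while 1 actuated and 3 low libraries fell inside the control range.

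Pdgfra, through which platelet-derived growth factor drives precursor division, was 49.1, 49.4, 28.7, 22.0 and 33.5 CPM in controls and 77.8, 99.4 and 95.3 in static libraries. It was 76.2, 51.1, 116 and 115 in actuated, 90.4, 64.8, 48.1 and 62.9 in high and 90.5, 51.0, 54.3, 45.1 and 42.4 in low libraries. No actuated or static library overlapped the controls on this scale, and the high and low groups did; with TMM scaling actuated replicate 2 fell inside the control range. Pdgfra is also expressed by fibroblasts, and the summed level of the 12 mesenchymal genes ran from 1515 to 3604 CPM in the high group against 741 to 1278 in controls, 741 to 4634 in low, 434 to 1854 in static and 268 to 1364 in actuated libraries. The part of mesenchymal RNA in the Pdgfra levels was not tested.

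**Figure D2:**
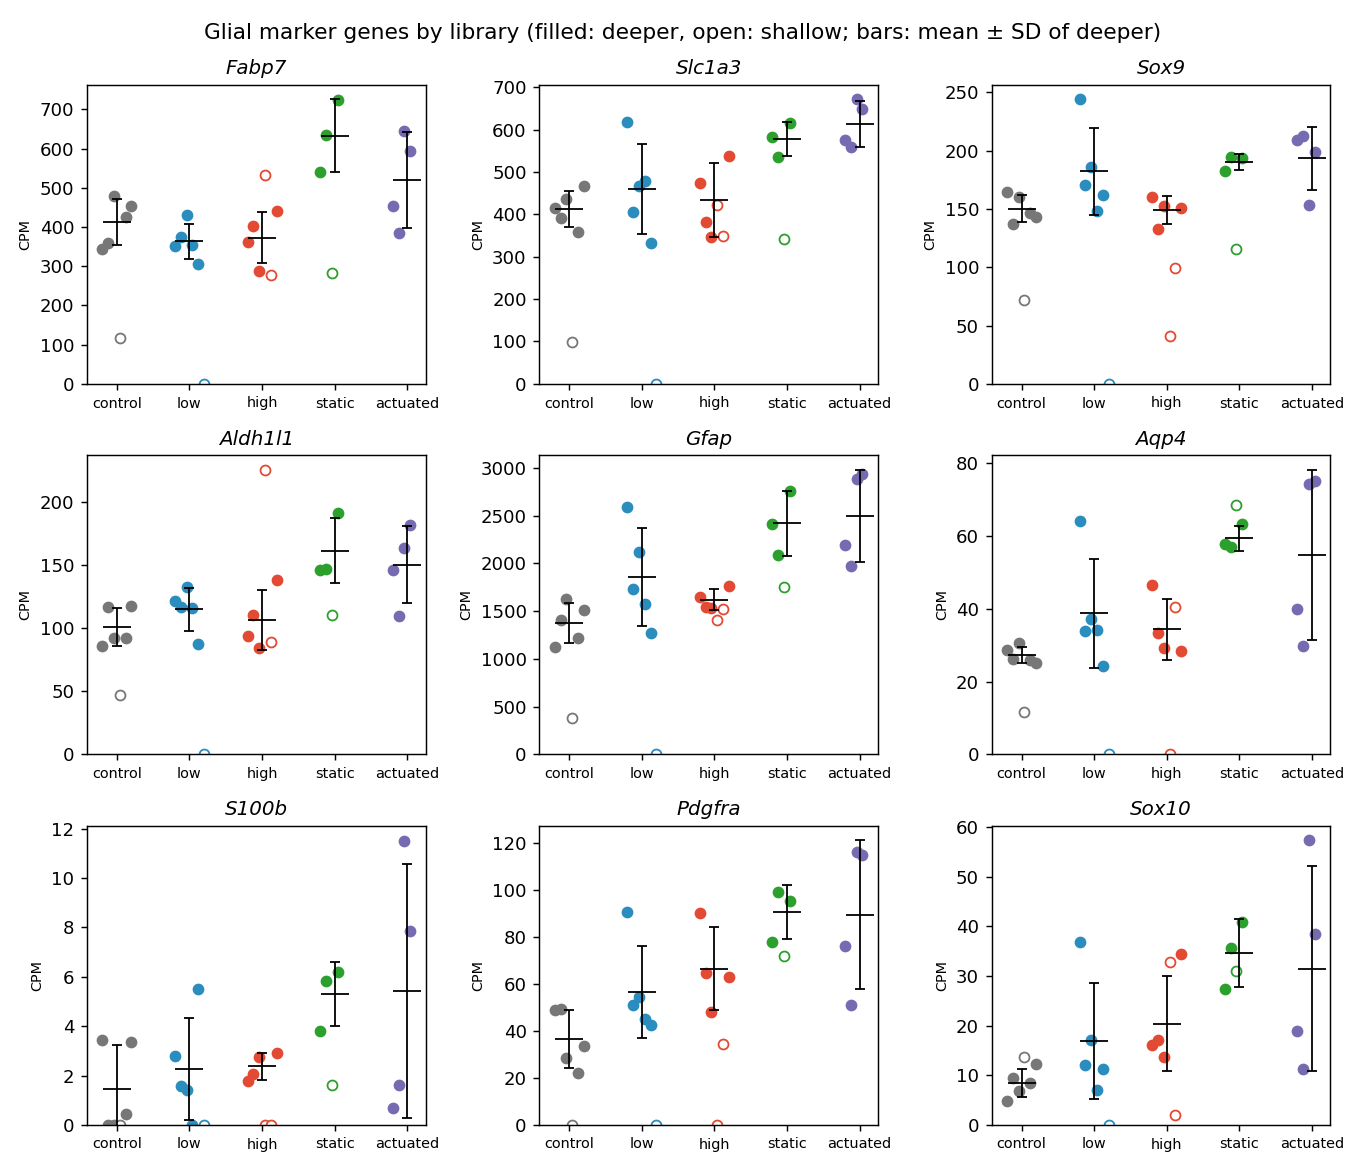
CPM of each glial marker gene in every library by group, with filled points for the 21 deeper libraries, open points for the 5 shallow ones, and bars for the mean ± SD of the deeper libraries. The static libraries stand above the controls in most panels, and the actuated libraries split into a low and a high pair for Sox10, Aqp4, Pdgfra, Gfap and S100b.

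In the comparison of the static array with the control, fitted values of all 9 glial genes were higher in static than in control libraries among the deeper libraries, but none passed the adjusted threshold of 0.05 in edgeR's quasi-likelihood test. The fitted folds were 3.63 for Sox10 (log2 1.86, SE 0.46, adjusted p = 0.058), 2.15 for Pdgfra (log2 1.10, SE 0.28, adjusted p = 0.064), 1.89 for Aqp4 (adjusted p = 0.13) and 1.53 for Gfap (adjusted p = 0.11), over 3 static and 5 control libraries. Aldh1l1 was at 1.39-fold, Fabp7 at 1.35, Slc1a3 at 1.22 and Sox9 at 1.11. S100b had a fitted fold of 3.11 with a 95% interval from 0.81 to 11.9. At an unadjusted p under 0.05 there were 6 members, all higher (Fabp7, Aldh1l1, Gfap, Aqp4, Pdgfra and Sox10), against 12.6% of the 14730 genes fitted in either direction and 6.10% in the higher direction. At the adjusted threshold 0.713% of genes were called. The median log2 fold change was 0.61 over the 9 members and -0.00303 over all genes fitted.

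With all 26 libraries 3 members (Aqp4, Pdgfra and Sox10) had an unadjusted p under 0.05, against 5.27% of 14907 genes, and no member was called, against 0.0134%. The member median was 0.52, and the all-gene median 0.091. Sox9 was at -0.13 in this fit and changed sign among the alternatives. On TMM-scaled values 6 of 9 members had every static library above every control (Slc1a3, Aldh1l1, Gfap, Aqp4, Pdgfra and Sox10), as did 4.52% of all genes. DESeq2's Wald test on the deeper libraries, added after seeing the data, called 3 members, against 2.58% of genes. They were Sox10 (adjusted p = 0.0095), Pdgfra (0.017) and Gfap (0.037). The planned Wald test on all 26 libraries called 10 of 14907 genes and no member. Its adjusted p was 0.55 for Sox10, 0.21 for Pdgfra and 0.30 for Gfap. Leaving out control replicate 2 of the deeper libraries took Pdgfra past the edgeR threshold (log2 1.26, adjusted p = 0.046). With the deeper libraries thinned to 1 depth the values were 1.62 for Sox10 (adjusted p = 0.12), 1.14 for Pdgfra (0.058) and 0.62 for Gfap (0.10). Depth and mitochondrial share moved with this comparison too. With mitochondrial and ribosomal RNA genes removed from all 26 libraries, edgeR gave log2 1.33 for Sox10 (adjusted p = 0.66), 1.24 for Pdgfra (0.53) and 0.93 for Aqp4 (0.69). The values with those genes kept were 1.32, 1.22 and 0.90. Whether samples of unlike mitochondrial share differed in these genes for that reason was not tested. The 15 neuronal genes summed to 10491 to 13352 CPM in static and 9039 to 10450 in control libraries, but in the TMM-scaled fit 4 were positive, their median was -0.067, and 1 was higher and 3 lower at an unadjusted p under 0.05.

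Genes of the same lineages from longer lists gave the following in the same comparison, in the deeper libraries. Of all 14730 genes fitted there, 0.713% were called in edgeR. At an unadjusted p under 0.05 there were 12.6%, with 6.10% in the higher direction. Of 10 oligodendrocyte precursor genes 1 was called, Lhfpl3 (log2 1.25, SE 0.27, adjusted p = 0.027 in edgeR), and 8 had positive values, with a list median of 0.86. At an unadjusted p under 0.05, 4 of the 10 were higher and 1 lower. Lhfpl3 was at 42.4 ± 2.66 CPM (SD, n = 3) in static and 15.7 ± 4.01 (n = 5) in control libraries. It was not called with all 26 libraries, where its adjusted p was 0.47. Of 12 myelin genes 10 could be fitted, none was called, all 10 were positive and 8 had an unadjusted p under 0.05, with a list median of 1.89. Mbp was at log2 1.90 (SE 0.54) and Cnp at 1.13 (SE 0.41), with adjusted p of 0.10 and 0.21 in edgeR. The summed level of the 12 myelin genes was 205 to 638 CPM in static, 113 to 549 in actuated and 60.1 to 139 in control libraries. The static and control groups did not overlap on this scale. It is without TMM scaling, and the median gene was 0.19 (log2) higher in static on it. Of 15 astrocyte genes 14 could be fitted, 12 were positive, none was called and the list median was 0.18. At an unadjusted p under 0.05, 3 of them were higher. Of 11 reactive astrocyte genes 8 could be fitted, 7 were positive and none was called. Their list median was 0.46, and 2 were higher at an unadjusted p under 0.05. Of 14 radial glia and progenitor genes 8 were positive, none was called, 2 were higher and 1 lower at an unadjusted p under 0.05, and the list median was 0.042.

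In the comparison of the actuated with the static array, moving the array was not accompanied by a detectable change in any of the 9 genes. Among the deeper libraries the fitted log2 differences lay between -0.28 for Fabp7 (SE 0.17, 95% interval -0.62 to 0.067) and 0.091 for Slc1a3 (SE 0.16, interval -0.23 to 0.41). Gfap was at 0.055 with an interval from -0.33 to 0.44, and Sox9 at 0.020 with an interval from -0.27 to 0.31. The intervals of Sox10 (-1.05 to 0.83) and S100b (-1.87 to 2.0) were far wider, and both genes split the actuated libraries into a low and a high pair. No member was called in edgeR with the deeper libraries or with all 26, and neither was any other gene (0.00% in each), and no member had an unadjusted p under 0.05, against 0.380% of genes in the deeper libraries and 3.86% in all. The member median was -0.0091 in the deeper libraries, beside -0.00042 over all genes. All 10 fitted myelin genes had negative values here, with a list median of -0.46, and none had an unadjusted p under 0.05.

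In the high intensity group against control, Pdgfra and Sox10 had the largest positive values. The 3 radial glia genes and the astrocyte gene Aldh1l1 had negative ones in the TMM-scaled fits. For Slc1a3 and Aldh1l1 these were smaller than their SEs (0.14 and 0.16 in the deeper libraries). Without TMM scaling, mean CPM was 435 in high and 413 in control libraries for Slc1a3, and 107 and 101 for Aldh1l1. Mean TPM was higher in high than in control libraries for each of these genes, on a scale where the median gene rose by 0.58 (log2). In the deeper libraries Sox10 was at log2 1.13 (SE 0.45, adjusted p = 0.21) and Pdgfra at 0.70 (SE 0.27, adjusted p = 0.20) in edgeR. They were the 2 members with an unadjusted p under 0.05, against 15.9% of genes. Fabp7 was at -0.30 (SE 0.15, adjusted p = 0.33), Sox9 at -0.16, Aldh1l1 at -0.082, Slc1a3 at -0.080 and Gfap at 0.082. No member was called, against 0.462% of genes, and with all 26 libraries none was called (0.0402%) or had an unadjusted p under 0.05 (7.04%). Sox10 was the only member with every high library above every control on TMM-scaled values, as were 2.07% of genes. Of the 12 mesenchymal genes all had positive values, with a list median of 1.14.

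In the low intensity group against control, the largest values were again those of Sox10, log2 0.91 (SE 0.43, adjusted p = 0.32 in edgeR, deeper libraries), while Fabp7 was at -0.33 (SE 0.14, adjusted p = 0.26). These 2 members had an unadjusted p under 0.05, against 15.2% of genes, and none was called, against 0.597%. Without low replicate 1 the value of Sox10 was 0.39. In the deeper libraries Pdgfra was at 0.48, Aqp4 at 0.36 and Gfap at 0.28. With all 26 libraries no member was called (0.0268% of genes were) and none had an unadjusted p under 0.05 (5.23%). The sign of Fabp7 depended on the scale: its mean TPM was 751 ± 151 (SD, n = 5) in the low group and 577 ± 176 (n = 5) in controls, against a rise of 0.69 (log2) in the median gene on that scale. On log2(TPM + 1), where limma called 36.9% of genes, 6 members were called higher in low than in control, and on the same scale 6 were called in static against control, where 7.41% of genes were.

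The progenitor genes Nes and Vim rose between low and control libraries in the deeper fit, while none of the 3 radial glia members was called. Nes (nestin) was at log2 1.43 (SE 0.33, adjusted p = 0.044) and Vim at 1.01 (SE 0.22, adjusted p = 0.035) in edgeR's fit to the deeper libraries. Hspb1, a small heat shock protein gene listed with the reactive astrocyte genes, rose by 1.25 (SE 0.29, adjusted p = 0.044), and the neuronal RNA-binding protein gene Elavl4 fell by 0.59 (SE 0.13, adjusted p = 0.037). None of the 4 passed with all 26 libraries, where their adjusted p ran from 0.35 to 0.99. Nestin and vimentin are also made by mesenchymal cells, whose summed level in these groups is given above beside Pdgfra, and that part was not tested. The 2 called of the 14 progenitor genes were these, and their list median was 0.18. In the low group Nes ranged from 120 to 572 CPM and in controls from 99.7 to 143.

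Between high and low intensity, no glial gene was called. Sox9 was lower in the high group by log2 -0.30 (SE 0.13, adjusted p = 0.61 in edgeR, deeper libraries), the sole member with an unadjusted p under 0.05, against 7.68% of genes. No gene in the table was called in either fit (0.00% each). With all 26 libraries no member had an unadjusted p under 0.05, against 2.91% of genes. Fabp7 was at 0.030 with a 95% interval from -0.28 to 0.34 and Slc1a3 at -0.088 with an interval from -0.37 to 0.20.

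**Figure D3:**
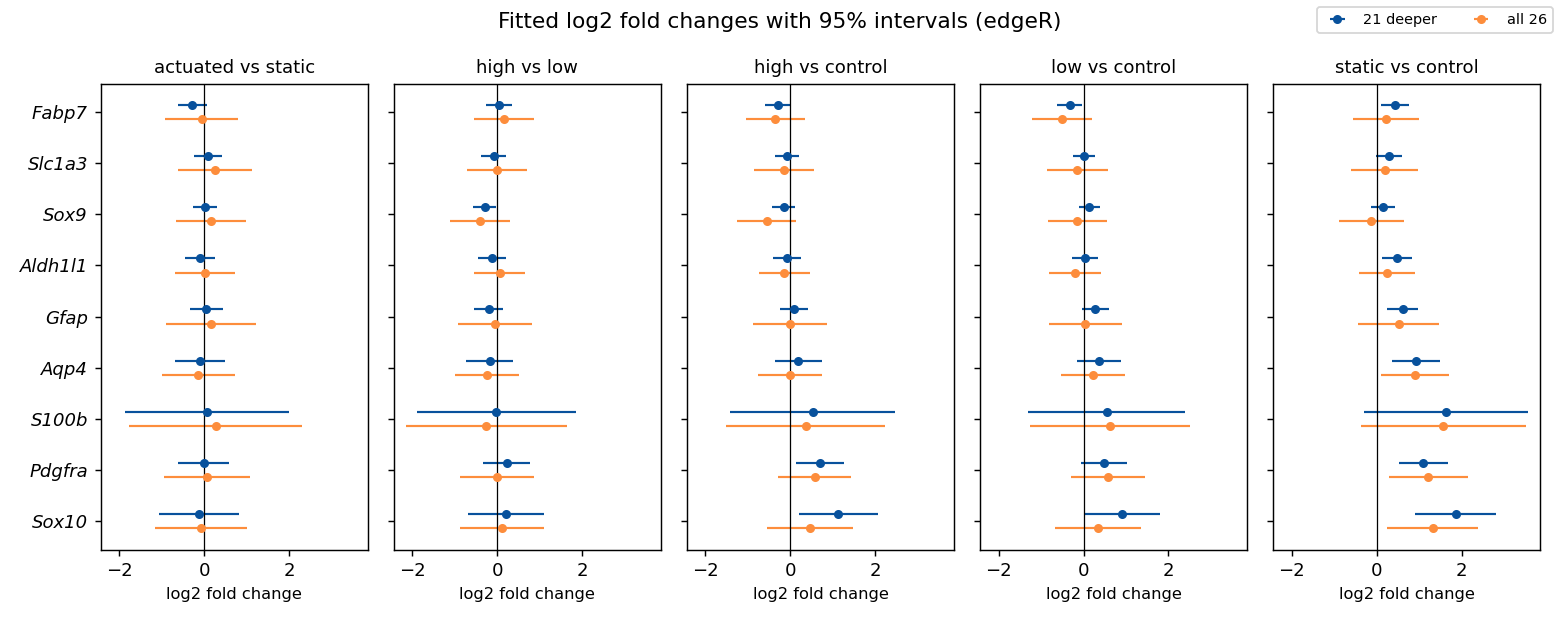
Fitted log2 fold changes (points) with 95% intervals (lines) for each gene in the 5 comparisons, from the 21 deeper libraries and from all 26. All 9 deeper-library values lie above 0 in static against control, and in actuated against static every interval includes 0.

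Across the 21 deeper libraries most of the glial genes varied together, whichever cell type they mark, and Sox9 and S100b less so. Correlations below are of TMM-scaled log2 CPM over these 21 libraries, which share groups, depth differences and scaling, and are given as descriptions. Gfap was closest to Aqp4 (r = 0.87, and 0.78 on deviations from the group means), Slc1a3 (0.85 and 0.78), Sox10 (0.82 and 0.77) and Aldh1l1 (0.81 and 0.69). Pdgfra followed Aqp4 (0.84 and 0.79) and Sox10 (0.80 and 0.59). Sox9 had a median r of 0.27 with the other 8 members (0.21 within groups) and S100b of 0.36 (0.15 within groups). S100b was closest to Sox10 (0.66, and 0.46 within groups) and Pdgfra (0.58 and 0.34). With Gfap its r was 0.40 (0.10 within groups), and it was lowest with Sox9 (0.13). For Sox9 with Fabp7 r was 0.10, and -0.26 within groups. The common movement was visible in single libraries. On the TMM scale, relative to the mean of the controls, actuated replicates 3 and 4 were at 2.67 and 2.04 (log2) for Sox10 and at 0.95 and 0.92 for Gfap, while actuated replicates 1 and 2 were at 1.00 and 0.24 for Sox10 and 0.48 and 0.28 for Gfap. Low replicate 1 stood at 2.02 for Sox10, 1.09 for Aqp4 and 0.79 for Gfap but at -0.36 for Fabp7.

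**Figure D4:**
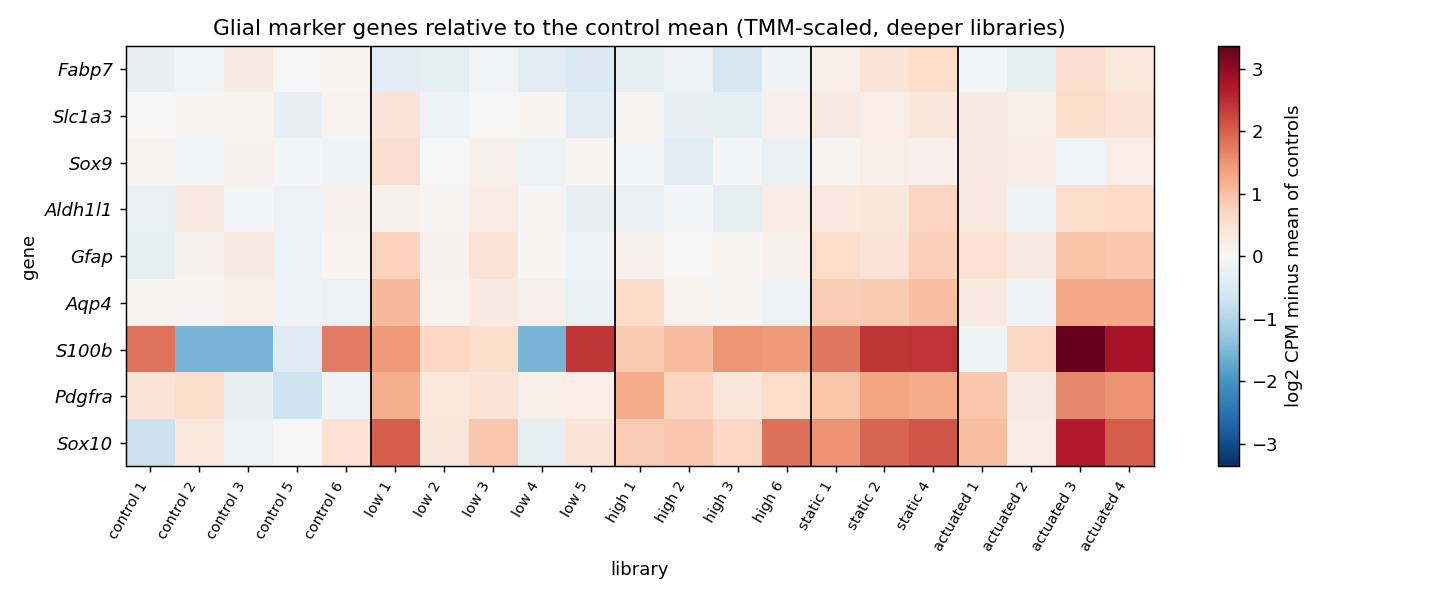
TMM-scaled log2 CPM of each gene (rows) in each deeper library (columns, grouped by treatment) minus the mean of the controls, red above and blue below. The static libraries, actuated replicates 3 and 4 and low replicate 1 are red for Aqp4, Pdgfra and Sox10. Other libraries, such as actuated replicate 1 and high replicate 1, are red for these genes too. The Fabp7 row is blue in the low and high groups.

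The genes most like each member were sought among those with a mean of at least 20 CPM (7608 genes), for the 8 members with a mean of at least 5 CPM, which leaves out S100b. Bcas1, a marker of newly forming oligodendrocytes, came first for both Sox10 (r = 0.90, and 0.84 within groups) and Aqp4 (0.89 and 0.82) and second for Pdgfra (0.89 and 0.83). Next for Sox10 were its close relative Sox8 (0.82) and the metallothionein gene Mt3 (0.82), and for Aqp4 Gfap (0.87) and the brain creatine kinase gene Ckb (0.87). Pdgfra was nearest to the collagen gene Col16a1 (0.90), and the third was Aqp4 (0.84). Gfap was nearest to Myo6 (0.92), the astrocyte gene Sparcl1 (0.90) and Sulf2 (0.89), and Slc1a3 to Col23a1 (0.89) and Myo6 (0.88). Fabp7 was nearest to Slc22a17 (0.88), Metrn (0.85) and Mmp15 (0.83), Aldh1l1 to Prex1 (0.87), Elfn1 (0.85) and Dpp6 (0.84), and Sox9 to Rbm39 (0.77), Igbp1 (0.76) and Mapkapk5 (0.74).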

How the data were processed

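RNA of 26 mouse spheroid samples was sequenced as 50-base read pairs after ribosomal depletion, per the labels' protocols. Per gene and sample, one deposited table holds estimated counts and another holds TPM. BWA 0.7.12-r1039, bedtools 2.25.0, STAR and Salmon and the builds mm10, hg19 and GRCm39 are named in the submitters' processing notes without their roles; strand handling is not given in the sources used here. Counts were rounded and fitted with edgeR 4.0.16 (filterByExpr, TMM, quasi-likelihood F-test) in 1 model of all 5 groups, with Benjamini-Hochberg adjustment over all genes fitted and a threshold of 0.05. The same model was fitted to the 21 libraries with more than 1000000 protein-coding counts. Alternatives used DESeq2 1.42.0 and limma 3.58.1. The fit was tested on simulated data for high against control, in which only genes with a mean of at least 50 expected counts were changed. With all libraries it recovered 35% of 2-fold and 95% of 4-fold changes, with 9 false calls. With the deeper ones it recovered 75% and 100%, with 3 false calls. These rates do not cover genes counted less often. Named genes were all 9 markers, of each other marker list the called genes and the 3 of highest median TPM, and for each marker the 3 most correlated genes, some of which are not reported here; others named singly (motor neuron genes, genes at 0) were chosen after their values were seen. The markers and lists were chosen with earlier results of these data known. Replicate numbers were checked as pairs and were not used as such.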

Additional observations from a re-analysis of the deposited data

Results flagged for a closer look

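In 36 groups of 4 or 5 deeper libraries (9 genes in 4 groups, the static group of 3 not being tested), 2 held a library whose distance from its nearest neighbour was large for the range of its group; chance gives about 1 in 20. Pdgfra was at 90.5 CPM in low replicate 1, where the next library was at 54.3, a gap of 0.75 of the range of 5 libraries. Sox10 was at 34.5 CPM in high replicate 6, where the next was at 17.0, a gap of 0.84 of the range of 4 libraries.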

How the results depend on the processing

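No glial gene was called in any comparison with all 26 libraries or with the 21 deeper ones, nor under the other planned settings, with 1 exception. Leaving out each replicate in turn gave 0 calls in every comparison but static against control, where the count ran from 0 to 1 (Pdgfra, without control replicate 2 of the deeper libraries). Alternatives added after seeing the data, all on the deeper libraries, gave more. DESeq2's Wald test called 3 members in static against control, against 2.58% of all genes. With limma on log2(TPM + 1), 6 were called there, against 7.41% of genes, and 6 in low against control, against 36.9%. Of these last 6 calls 3 had the opposite sign in the fit to all libraries (0.62 for Slc1a3, 0.85 for Sox9 and 1.07 for Aldh1l1), and uncalled values turned too, as Fabp7 to 0.42; the median gene moved by 0.64 there. Of 1585 alternative log2 fold changes 287 changed sign, 86 of them in high against low and 19, all of Sox9, in static against control. With the replicate number as a block the count of calls was 0 in all 5 comparisons, and Sox10 in static against control was at 1.25 (all libraries) and 2.11 (deeper). Same-numbered libraries did not deviate together (r from -0.22 to 0.18), so the numbers were not taken as pairs. Of 36 correlations between members 17 moved by more than their jackknife error when taken on deviations from group means, and 2 changed sign (Sox9 with Fabp7, -0.26, and with Aldh1l1, -0.19). Depth limits S100b most: it had 26 counts over the 6 controls together.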
